A study of Mus musculus with 6 samples.

Results

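The genes described here are 45 genes of glycerophospholipid metabolism among the 55357 genes in the deposited counts. They were taken by gene symbol for their known function, not for their values, although earlier results of these data were known at the choice. They make phosphatidic acid, phosphatidylcholine (PC), phosphatidylethanolamine (PE), phosphatidylserine (PS) and cardiolipin, exchange the fatty acids of these lipids, or cleave them without belonging to group IV of the phospholipases A2, the group of *Pla2g4e* itself. They were measured by RNA-seq in primary cultures of cortical and hippocampal neurons of E18 C57BL/6N mouse embryos, labelled as wild type. At DIV4 (days in vitro), 3 cultures received a lentivirus with a scrambled shRNA (shCtrl) and 3 a lentivirus with the sh2 sequence against *Pla2g4e* (sh*Pla2g4e*), and poly(A) RNA was taken at DIV14. All 6 cultures carried a lentivirus, and the shRNA was expressed from a vector that does not restrict it to neurons. A single shRNA sequence was used, so that the loss of *Pla2g4e* and any other action of sh2 cannot be told apart. The labels do not say whether the 3 libraries of a group came from separate litters, so that p-values measure the spread between these libraries.

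As background, nearly all glycerophospholipids descend from phosphatidic acid, which acyltransferases build on glycerol 3-phosphate. Lipins turn phosphatidic acid into diacylglycerol, the acceptor for the choline and ethanolamine heads of PC and PE in the Kennedy pathway, whereas CDP-diacylglycerol synthases divert it to phosphatidylinositol and cardiolipin. Phospholipases A then remove a fatty acid and lysophospholipid acyltransferases put another one in its place, the cycle that gives brain membranes their polyunsaturated chains. PLA2G4E draws on the same lipid pools as an N-acyltransferase, with PC as the acyl donor and PE as the acceptor.

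The sequences of the silencing agent are given here because some of the genes below carry a match to it. The sh2 target lies in the coding sequence of *Pla2g4e* on the minus strand (GRCm38, chr2:120182753-120182771). In the first line the capitals mark the letters that pair with the seed of the guide strand, and in the second they mark the seed itself (bases 2 to 8 of the guide). The 3 lines after that are 30-base windows of annotated 3′ UTRs (GENCODE vM21, GRCm38, read in the direction of the transcript) of *Cds2* (chr2:132311533-132311562, plus strand), *Lclat1* (chr17:73241265-73241294, plus strand) and *Lpin1* (chr12:16538334-16538363, minus strand), with the same 7 letters in capitals.
sh2 target: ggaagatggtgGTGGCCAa
sh2 guide strand: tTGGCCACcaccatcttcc
Cds2 3′ UTR: cagtgctcctgGTGGCCAtagggaccagaa
Lclat1 3′ UTR: agagaatccttGTGGCCActgtttccactc
Lpin1 3′ UTR: aaggctgatatGTGGCCAcctgcctaagag

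Between 17054717 and 23570180 reads were counted per library. *Pla2g4e* fell from 36.1 ± 1.6 CPM to 18.2 ± 3.87 CPM (SD, n = 3), a log2 fold change of −0.99 (SE 0.13, adjusted p = 0.000124), with the groups apart. CPM here are counts scaled to library size with edgeR's TMM factors, fold changes are sh*Pla2g4e* against shCtrl on the log2 scale, and a gene is called at an adjusted p under 0.01 in edgeR's quasi-likelihood test over the 21876 genes tested. The neuron label held, as 10 neuron markers summed to 5782 to 6291 CPM in shCtrl and 5186 to 5755 CPM in sh*Pla2g4e* libraries. The sums did not overlap, and of these markers *Map2* (−0.45) and *Rbfox3* (−0.41) were called lower and *Nefl* (0.48) and *Nefm* (0.68) higher, with 4 lower and 3 higher under the replicate block described below. Astrocyte markers were abundant too, with 10 of them summing to 2913 to 3738 CPM and 1979 to 3172 CPM. The oligodendrocyte lineage list summed to 572.0 to 723.6 CPM, and the tested microglial and endothelial and mural markers to 18.7 to 35.9 CPM and 27.7 to 78.1 CPM over all libraries. As the RNA comes from whole cultures, fewer cells of a type and less RNA per cell cannot be told apart.

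Few of the phospholipid enzyme genes passed the test, and those that did moved in both directions. All 45 passed the filter on low counts, and the scarcest had 19 reads in a library. The test called 3 of them lower, *Cds2*, *Plpp3* and *Lclat1*, and 1 higher, *Cds1*. That is 6.67% down and 2.22% up, beside 4.0% and 2.48% of all genes tested. Well expressed genes are called more often, and 38 of the 45 had an average log2 CPM of at least 3. Among these, 7.89% were down and 2.63% up, beside 7.66% and 3.43% of the 10958 genes at that level, so that the shares were near the background. Without shCtrl replicate 2 edgeR called none of the 45, beside 695 of all genes (3.21%). In that fit 17 of the 45 had an unadjusted p under 0.05 (37.8%), beside 20.7% of all genes and 29.1% of those at an average log2 CPM of at least 3. With all 6 libraries 20 of the 45 had such a p (44.4%), beside 25.7% of all genes and 37.2% of those at that level. They were 6 of the 9 lysophospholipid acyltransferases, 4 of the 6 lipins and lipid phosphate phosphatases, 3 of the 6 phospholipases, 3 of the 4 genes of CDP-diacylglycerol and cardiolipin, 2 of 6 in the PC branch, 1 of 6 for phosphatidic acid and 1 of 8 for PE and PS.

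The labels number the replicates but name no pairing. Same-numbered libraries deviated together (r = 0.392, 0.189 and 0.461, against −0.393 to 0.108 for unlike numbers), so the numbers were taken as pairs from these same data. With the number as a block in the edgeR fit 7 genes were lower (15.6%, beside 9.02% of all genes) and 5 higher (11.1%, beside 6.5%). At an average log2 CPM of at least 3 these were 18.4% and 7.89% of the 38 genes, beside 16.8% and 9.42% of all genes at that level. The additional genes were *Gpam*, *Lpcat1*, *Mboat7* and *Pla2g7* among the lower and *Lpcat2*, *Lpin1*, *Lpin2* and *Lpin3* among the higher. In 13 genes (28.9%) every sh*Pla2g4e* library lay below every shCtrl library, beside 14.6% of all genes, and in 7 (15.6%) above, beside 15.5%. At that higher level the shares were 31.6% below and 13.2% above, beside 23.8% and 16.3%. The median log2 fold change of the 45 genes was −0.07, beside 0.03 over all genes, and 27 were lower and 18 higher. Scaling by library size alone moved all genes up alike, with medians of 0.007 for the 45 genes and 0.103 over all genes. It left 22 of the 45 lower and 23 higher, and 43.3% in place of 61.7% of all called genes lower.

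**Figure D1:**
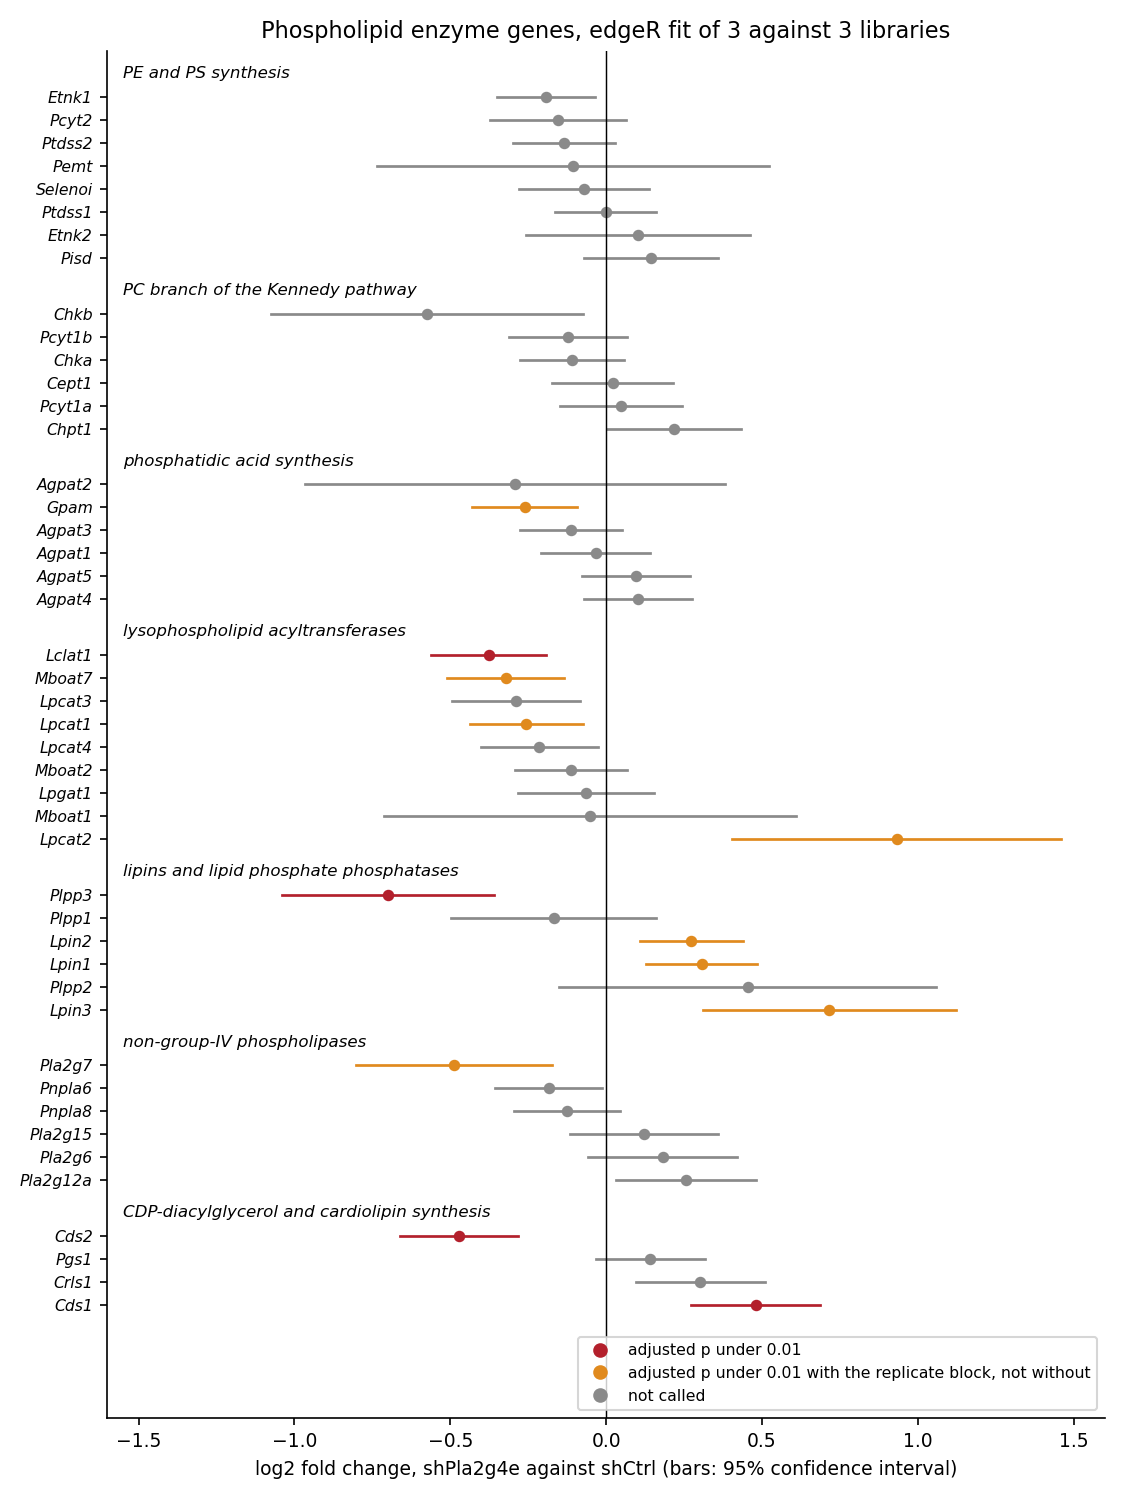
Log2 fold change (horizontal axis) of each of the 45 genes, grouped by role, with the 95% confidence interval from edgeR. Red marks the 4 genes called, orange the 8 called in the fit with the replicate block but not in the fit without it, and grey the other 33. The lysophospholipid acyltransferases lie mostly to the left of 0 and the 3 lipins to the right.

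None of the 6 phosphatidic acid enzymes was called without the block by edgeR, limma or DESeq2, beside 6.49% of all genes in edgeR. At an unadjusted p under 0.05 edgeR counted 1 (*Gpam*), beside 25.7% of all genes and 37.2% of those at an average log2 CPM of at least 3. *Gpam*, the mitochondrial acyltransferase that adds the first fatty acid to glycerol 3-phosphate, gave 118.9, 120.9 and 118.6 CPM in the controls (shCtrl replicates 1, 2 and 3, the order kept below). The sh*Pla2g4e* cultures gave 92.4, 100.3 and 106.7 CPM, all below the controls. Its log2 fold change was −0.26 (SE 0.08, adjusted p = 0.0413, and 0.00223 with the block). The next acyl group is added by the *Agpat* enzymes, and of these *Agpat1* had the highest level per length. It stood at 156.4 ± 11.4 CPM in shCtrl and 152.9 ± 8.90 CPM in sh*Pla2g4e* cultures (SD, n = 3), with a 95% interval of the log2 fold change from −0.21 to 0.14. *Agpat3*, *Agpat4* and *Agpat5* lay between −0.11 and 0.10, and *Agpat2* was barely expressed, with 2.02 and 1.63 CPM. An antisense gene covers 19% of the exon bases of *Agpat5*, and reads of the pair cannot be told apart.

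The CDP-diacylglycerol synthases moved in opposite directions. Both enzymes join phosphatidic acid to CTP, the step that commits it to phosphatidylinositol and cardiolipin. *Cds2* (GRCm39, chr2:132105068-132153970) had 698.8, 626.6 and 559.0 CPM in the controls, the highest level per length of the 45 genes. After silencing it had 476.3, 439.1 and 441.8 CPM. The groups were apart, and 72.0% of the control mean was left (log2 fold change −0.47, SE 0.09, adjusted p = 0.00211). *Cds1* (GRCm39, chr5:101912996-101971724) had 89.5, 73.3 and 69.9 CPM in the controls and 115.6, 100.5 and 108.3 CPM after silencing. It was higher in every sh*Pla2g4e* library than in any control, by 0.48 on the log2 scale (SE 0.10, adjusted p = 0.00361).

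Neither gene shares exon bases with another gene. *Cds2* kept 72.0% of its control level and *Cds1* stood at 139.4%. The 10 neuron markers ranged from 73.0% (*Map2*) to 159.5% (*Nefm*) of theirs, and their sum stood at 90.1%. The part of neuronal RNA in either result was not tested. Both calls held in all 10 alternatives that keep the 6 libraries. Leaving out 1 library, *Cds2* was not called without shCtrl replicate 1 (adjusted p = 0.0110), shCtrl replicate 2 (0.0179) or sh*Pla2g4e* replicate 2 (0.0101). *Cds1* was not called without shCtrl replicate 2 (0.0343), shCtrl replicate 3 (0.0162) or sh*Pla2g4e* replicate 1 (0.0242). Per kb of exon, *Cds1* made up 22.9%, 21.3% and 22.5% of the 2 transcripts together in shCtrl libraries and 36.0%, 34.7% and 36.2% in sh*Pla2g4e* libraries, a share computed after the values were seen and not tested. Their summed level was 88.5 ± 10.2 CPM per kb in shCtrl and 77.0 ± 4.06 CPM per kb in sh*Pla2g4e* cultures (SD, n = 3), with overlapping groups.

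Further along this branch, *Pgs1* and *Crls1* make phosphatidylglycerol phosphate and cardiolipin in mitochondria. *Crls1* had 26.6, 26.0 and 29.5 CPM in shCtrl and 32.0, 36.1 and 33.2 CPM in sh*Pla2g4e* libraries, with the groups apart. Its log2 fold change of 0.30 (SE 0.10) did not pass the test (adjusted p = 0.0525, and 0.0107 with the block). *Pgs1* stood at 60.8 ± 2.44 CPM and 67.2 ± 4.21 CPM (SD, n = 3), with overlapping groups.

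**Figure D2:**
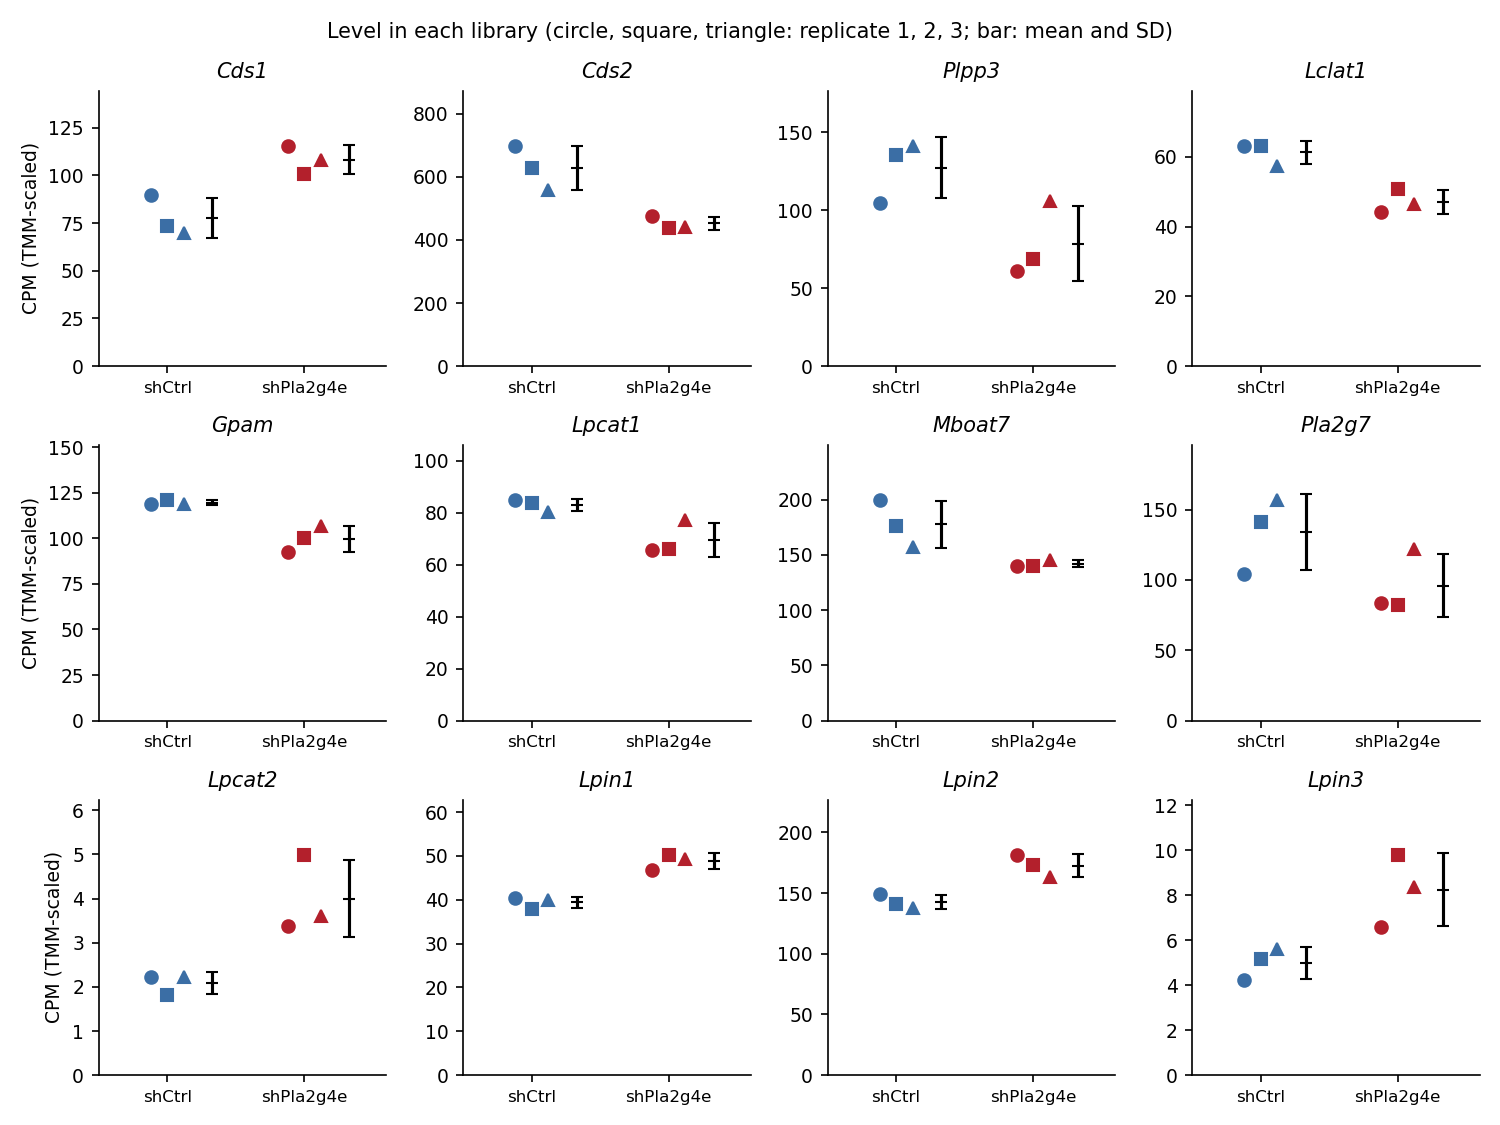
CPM in each library (vertical axis, from 0) of the 12 genes called without or with the replicate block, shCtrl in blue and sh*Pla2g4e* in red, with circle, square and triangle for replicates 1, 2 and 3 and the bar for the mean and SD. *Cds1* and *Cds2* part in opposite directions, and in *Plpp3* and *Pla2g7* the third sh*Pla2g4e* library reaches the range of the controls.

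The lipins, phosphatases that turn phosphatidic acid into diacylglycerol, were all higher in sh*Pla2g4e* cultures, with no overlap between groups, and all 3 were called with the block but not without it. Of all genes 15.5% lay above all controls and 6.5% were called higher with the block. *Lpin2* had 149.5, 141.1 and 138.0 CPM in shCtrl and 181.7, 173.1 and 163.2 CPM in sh*Pla2g4e* libraries (log2 fold change 0.27, SE 0.08, adjusted p = 0.0294, and 0.000716 with the block). *Lpin1*, also a nuclear co-regulator of lipid genes, had 40.4, 37.9 and 39.9 CPM against 46.7, 50.3 and 49.2 CPM (0.31, SE 0.08, adjusted p = 0.0236, and 0.00333 with the block). *Lpin3* was scarce. It had 4.22, 5.18 and 5.59 CPM against 6.57, 9.80 and 8.34 CPM (0.72, SE 0.19, adjusted p = 0.0210, and 0.000535 with the block). Without the block, *Lpin1* and *Lpin2* also passed with scaling by library size alone (0.00774 and 0.00393) and *Lpin3* with no filter on low counts (0.00417). Per kb of exon the 3 lipins together gave 17.0 ± 0.375 CPM in shCtrl and 21.3 ± 0.660 CPM in sh*Pla2g4e* cultures (SD, n = 3), a sum formed after the values were seen.

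*Plpp3* fell most among the 3 genes called lower. It encodes a cell surface phosphatase that removes the phosphate of lysophosphatidic acid and sphingosine 1-phosphate, and in brain it is known as a gene of astrocytes. *Plpp3* (GRCm39, chr4:105014544-105089961) had 104.7, 135.1 and 141.3 CPM in the controls and 60.8, 68.6 and 106.1 CPM after silencing. The third sh*Pla2g4e* library exceeded the first control, so that the groups overlapped, although each was lower than the control of the same number. The log2 fold change was −0.70 (SE 0.16, adjusted p = 0.00827, and 2.38e-12 with the block). The call was lost without shCtrl replicate 2 (adjusted p = 0.0482), shCtrl replicate 3 (0.0388), sh*Pla2g4e* replicate 1 (0.0453) or sh*Pla2g4e* replicate 2 (0.0353). With all libraries it was not made by DESeq2 (0.0662) or the robust fit (0.169). It was also lost with upper-quartile scaling (0.013), library size alone (0.0195), at least 10 reads in every library (0.0167) and filterByExpr (0.0148). Of its paralogues, *Plpp1* gave 8.42 and 7.5 CPM and *Plpp2* 3.93 and 5.37 CPM as means of shCtrl and sh*Pla2g4e*, and neither was called. The gene *Mtrex* on the opposite strand covers 25.8% of the exon bases of *Plpp1*, so that its level is uncertain.

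None of the 6 non-group-IV phospholipases was called without the block by edgeR, limma or DESeq2, beside 6.49% of all genes in edgeR. At an unadjusted p under 0.05 edgeR counted 3, beside 25.7% of all genes and 37.2% of those at an average log2 CPM of at least 3. With the block *Pla2g7* alone was called, beside 9.02% of all genes lower. It encodes the secreted hydrolase of platelet-activating factor and, like *Plpp3*, is known in brain from astrocytes. It had 104.5, 141.3 and 156.8 CPM in shCtrl and 83.5, 82.3 and 121.9 CPM in sh*Pla2g4e* libraries, with overlapping groups (log2 fold change −0.49, SE 0.15, adjusted p = 0.0409, and 1.17e-07 with the block). Without the block it passed with no filter on low counts and when shCtrl replicate 1 (adjusted p = 0.00861) or sh*Pla2g4e* replicate 3 (0.000689) was left out. An antisense gene covers 11% of its exon bases.

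The astrocyte markers moved with both genes. Their sum was 2913, 3281 and 3738 CPM in the controls and 2143, 1979 and 3172 CPM after silencing. Thus the third library was the highest of each group, as it was for *Plpp3* and *Pla2g7*. Of the 10 markers, 8 had lower values and 2 (*Aldh1l1* and *S100b*) higher ones. *Aqp4*, *Gja1* and *Slc1a2* were called lower and none higher. With the block 7 were called lower, *Gfap*, *Slc1a3*, *Sox9* and *Aldoc* being added, and *S100b* was called higher. Per 1000 CPM of these markers, *Plpp3* gave 36.0, 41.2 and 37.8 CPM in shCtrl and 28.4, 34.7 and 33.5 CPM in sh*Pla2g4e* libraries. *Pla2g7* gave 35.9, 43.1 and 41.9 CPM and 39.0, 41.6 and 38.4 CPM, with overlapping groups. These ratios were formed after the values were seen, and the part of the astrocyte RNA in either result was not tested further.

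**Figure D3:**
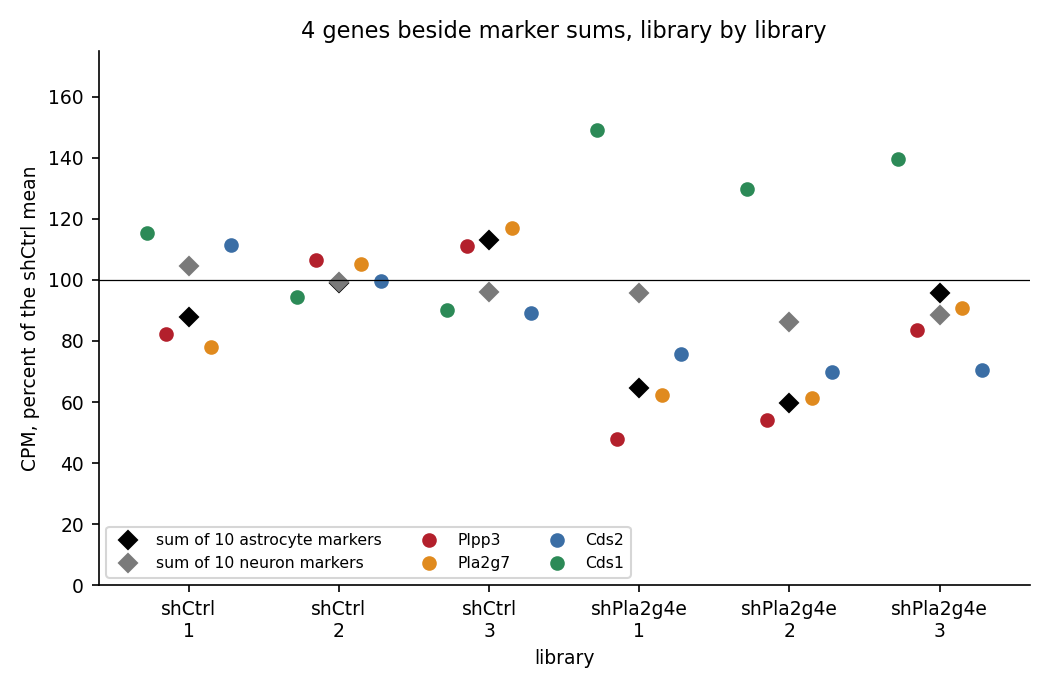
CPM of *Plpp3*, *Pla2g7*, *Cds2* and *Cds1* and of the summed astrocyte and neuron markers in each library (horizontal axis), as percent of the shCtrl mean (vertical axis). *Plpp3* and *Pla2g7* are highest, as the astrocyte sum is, in the third library of each group, whereas *Cds2* and *Cds1* are highest in the first, as the neuron sum is.

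The remaining phospholipases were called neither without nor with the block. *Pla2g6*, the calcium-independent phospholipase A2 whose human loss causes infantile neuroaxonal dystrophy, had 23.6 ± 3.26 CPM in shCtrl and 26.8 ± 1.46 CPM in sh*Pla2g4e* cultures (SD, n = 3), and the 95% interval of its log2 fold change ran from −0.06 to 0.42. *Pnpla8*, another calcium-independent enzyme, stood at 142.7 and 130.9 CPM, and *Pnpla6*, the neuropathy target esterase, at 76.2 and 67.1 CPM. *Pla2g15*, the lysosomal enzyme, had 26.3 and 28.5 CPM and *Pla2g12a*, a secreted one, 19.4 and 23.1 CPM. Of these 5 genes *Pnpla6* lay below and *Pla2g12a* above all controls, with adjusted p = 0.161 and 0.136 in edgeR. Of all genes 14.6% lay below and 15.5% above all controls.

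Most lysophospholipid acyltransferases had lower values in sh*Pla2g4e* cultures. Of 9 genes, 8 had a negative log2 fold change (6 with scaling by library size alone), 5 lay below all controls (55.6%) and 1 was called (11.1%), and DESeq2 called 2 lower. Of all genes tested 46.5% were lower, 14.6% lay below all controls and 4.0% were called lower (5.55% by DESeq2). At an average log2 CPM of at least 3, the level of 7 of the 9, all 7 had lower values, 5 lay below all controls (71.4%) and 1 was called (14.3%), beside 54.5%, 23.8% and 7.66% of all genes at that level (10.6% by DESeq2). The median was −0.21 (−0.14 by library size alone). *Lclat1* (GRCm39, chr17:73414980-73550363), an enzyme that remodels cardiolipin and phosphatidylinositol, had 63.2, 63.2 and 57.4 CPM in shCtrl and 44.1, 50.9 and 46.5 CPM in sh*Pla2g4e* libraries. It fell to 77.0% of the control mean with the groups apart (log2 fold change −0.38, SE 0.09, adjusted p = 0.00882, and 0.000116 with the block). The call was lost without shCtrl replicate 1 (0.0354), shCtrl replicate 2 (0.0558), sh*Pla2g4e* replicate 1 (0.0595) or sh*Pla2g4e* replicate 3 (0.0161). With all libraries it was lost with upper-quartile scaling (0.0154), library size alone (0.0311) and at least 10 reads in every library (0.0103).

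Among the enzymes called with the block, *Mboat7*, which places arachidonic acid in phosphatidylinositol, had 199.6, 176.0 and 157.4 CPM in shCtrl and 140.2, 140.3 and 145.8 CPM in sh*Pla2g4e* libraries. Its log2 fold change was −0.32 (SE 0.09, adjusted p = 0.0248, and 0.000173 with the block), and without the block it passed in DESeq2 (0.00614), with no filter on low counts (0.00382) and without shCtrl replicate 3 (0.00505). *Lpcat1*, which makes saturated PC and removes lyso-platelet-activating factor, had 84.8, 83.8 and 80.4 CPM against 65.6, 65.9 and 77.2 CPM (−0.26, SE 0.09, adjusted p = 0.0601, and 0.00558 with the block). Both pairs of groups were apart.

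*Lpcat2* went the other way. This enzyme, which makes platelet-activating factor and is best known from macrophages and microglia, had 2.23, 1.81 and 2.22 CPM in shCtrl and 3.39, 4.99 and 3.60 CPM in sh*Pla2g4e* libraries (log2 fold change 0.93, SE 0.25, adjusted p = 0.0206, and 0.00294 with the block). It also passed with no filter on low counts. At so low a level the 95% interval was wide, from 0.41 to 1.46, and an antisense gene covers 8.47% of its exon bases. The 8 microglial markers tested summed to 18.7 to 32.3 CPM in shCtrl and 31.2 to 35.9 CPM in sh*Pla2g4e* libraries, most of it *Cd68*, which was called higher (0.67, adjusted p = 0.00872). Of the other markers 6 had lower values, of which *C1qc* was called lower with the block (adjusted p = 0.000645), and the defining marker *P2ry12* was at 0 in sh*Pla2g4e* replicates 1 and 3 and under 0.4 CPM elsewhere. The part of microglial RNA in the level of *Lpcat2* was not tested.

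Of the lysophospholipid acyltransferases *Lpgat1* had the highest mean level per length (24.8 CPM per kb in shCtrl), with *Lpcat4* (23.1 CPM per kb) within its SD. It stood at 189.1 ± 23.4 and 180.7 ± 20.8 CPM (SD, n = 3). *Lpcat3*, the enzyme of polyunsaturated PC, had 33.7 ± 0.448 CPM in shCtrl and 27.6 ± 2.42 CPM in sh*Pla2g4e* cultures, apart between groups but not called (adjusted p = 0.0618, and 0.0149 with the block). *Lpcat4* had 65.3 and 56.3 CPM, *Mboat2* 65.4 and 60.5 CPM and *Mboat1* 1.92 and 1.87 CPM. Per kb of exon, the 9 acyltransferases summed to 125.0, 119.3 and 109.7 CPM in shCtrl and 102.0, 101.2 and 102.3 CPM in sh*Pla2g4e* libraries, so that the sums did not overlap.

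Neither head-group branch of PC and PE synthesis held a gene that passed the test in edgeR, with or without the block, in limma or in DESeq2. Of all genes edgeR called 6.49% without the block. At an unadjusted p under 0.05 edgeR counted 2 of 6 genes of the PC branch and 1 of 8 of the PE and PS genes. Over all genes this share was 25.7%, and 37.2% of those at an average log2 CPM of at least 3. In the PC branch, *Pcyt1b*, a form of the CTP-dependent enzyme that sets the pace of PC synthesis, was the most abundant per length. It had 97.0 ± 11.4 CPM in shCtrl and 89.0 ± 1.99 CPM in sh*Pla2g4e* cultures (SD, n = 3), with an interval of the log2 fold change from −0.31 to 0.07. Its paralogue *Pcyt1a* had 52.6 and 54.4 CPM, and the choline kinase *Chka* 107.2 and 99.4 CPM. The final transferases *Cept1* and *Chpt1* had 33.3 and 33.8 CPM and 42.6 and 49.6 CPM. The choline kinase *Chkb* had 3.63 ± 0.231 CPM and 2.44 ± 0.378 CPM (adjusted p = 0.131), and as 57.6% of its exon bases lie in other genes and 43.7% of its 50-base stretches occur in another gene, its level is uncertain. The same holds in part for *Cept1*, of whose exon bases 24.9% overlap genes on the opposite strand.

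The genes of PE, the acceptor in the PLA2G4E reaction, and of PS had the narrowest range of log2 fold changes of the 7 roles, −0.19 to 0.14. *Ptdss1*, a PS synthase that exchanges the choline of PC for serine, had 71.7, 73.2 and 72.5 CPM in shCtrl and 72.7, 74.4 and 70.1 CPM in sh*Pla2g4e* libraries. The 95% interval of its log2 fold change ran from −0.16 to 0.16. *Ptdss2*, which uses PE for the same exchange, had 77.5 ± 2.53 and 70.6 ± 2.30 CPM (SD, n = 3), and *Pisd*, which makes PE from PS in mitochondria, 34.1 ± 3.83 and 37.8 ± 2.68 CPM. Of the exon bases of *Pisd*, 20.9% overlap another gene, so that its counts are uncertain.

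*Etnk1*, the kinase that opens the ethanolamine branch, was the most abundant of this group per length. It had 384.4, 370.9 and 372.5 CPM in shCtrl and 337.8, 324.0 and 323.9 CPM in sh*Pla2g4e* libraries, all below the controls. The difference was small (−0.19, SE 0.07) and did not pass the test (adjusted p = 0.104, and 0.0133 with the block). The later enzymes *Pcyt2* and *Selenoi* had 78.1 and 70.2 CPM and 96.5 and 91.8 CPM, and *Etnk2* and the PE methyltransferase *Pemt* had 9.09 and 9.79 CPM and 2.53 and 2.34 CPM. Per kb of exon, the 8 genes summed to 91.6 ± 1.57 CPM in shCtrl and 85.6 ± 0.921 CPM in sh*Pla2g4e* cultures.

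What was not called was not measured with equal precision. Of the 33 genes called in neither fit, 28 were well expressed, and for 27 of these the 95% interval of the log2 fold change lay within 0.5 of 0 on either side. For 13 it lay within 0.3. The intervals were wider in the scarce genes *Pemt*, *Agpat2*, *Mboat1*, *Plpp2* and *Chkb*. These intervals are those of the fit without the block.

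Levels per length spanned a wide range in the control cultures. *Cds2*, *Agpat1*, *Pla2g7*, *Plpp3* and *Agpat3* led with 68.8 ± 7.66, 52.1 ± 3.80, 46.2 ± 9.23, 40.2 ± 6.19 and 37.4 ± 0.535 CPM per kb of exon (SD, n = 3). From *Agpat1* to *Agpat3* each gene lay within an SD of the next, so their order is not resolved. *Mboat1*, *Lpcat2* and *Agpat2* came last with 0.525, 0.616 and 0.947 CPM per kb, and the median of the 45 genes was 10.3. In sh*Pla2g4e* cultures *Agpat1* (50.9 ± 2.96 CPM per kb) and *Cds2* (49.6 ± 2.27 CPM per kb) led, within an SD of each other. By their means *Plpp3* went from rank 4 to rank 7 and *Cds1* from rank 11 to rank 5. There *Cds1* (27.4 CPM per kb) and *Agpat4* (26.7 CPM per kb) lay within the SD of *Plpp3* (24.9 ± 7.66 CPM per kb), so the order of ranks 5 to 7 is not resolved. All 45 genes together summed to 673.9, 660.3 and 649.3 CPM per kb in shCtrl and 594.9, 594.0 and 617.9 CPM per kb in sh*Pla2g4e* libraries. Their averages stood at 661.2 and 602.3 CPM per kb, and most of the difference lay in *Cds2*, *Plpp3* and *Pla2g7*, which together gave 155.3 and 107.4 CPM per kb. Without these 3 genes, left out after the values were seen, the sums overlapped, with 505.9 ± 20.1 CPM per kb in shCtrl and 494.8 ± 0.929 CPM per kb in sh*Pla2g4e* cultures (SD, n = 3).

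**Figure D4:**
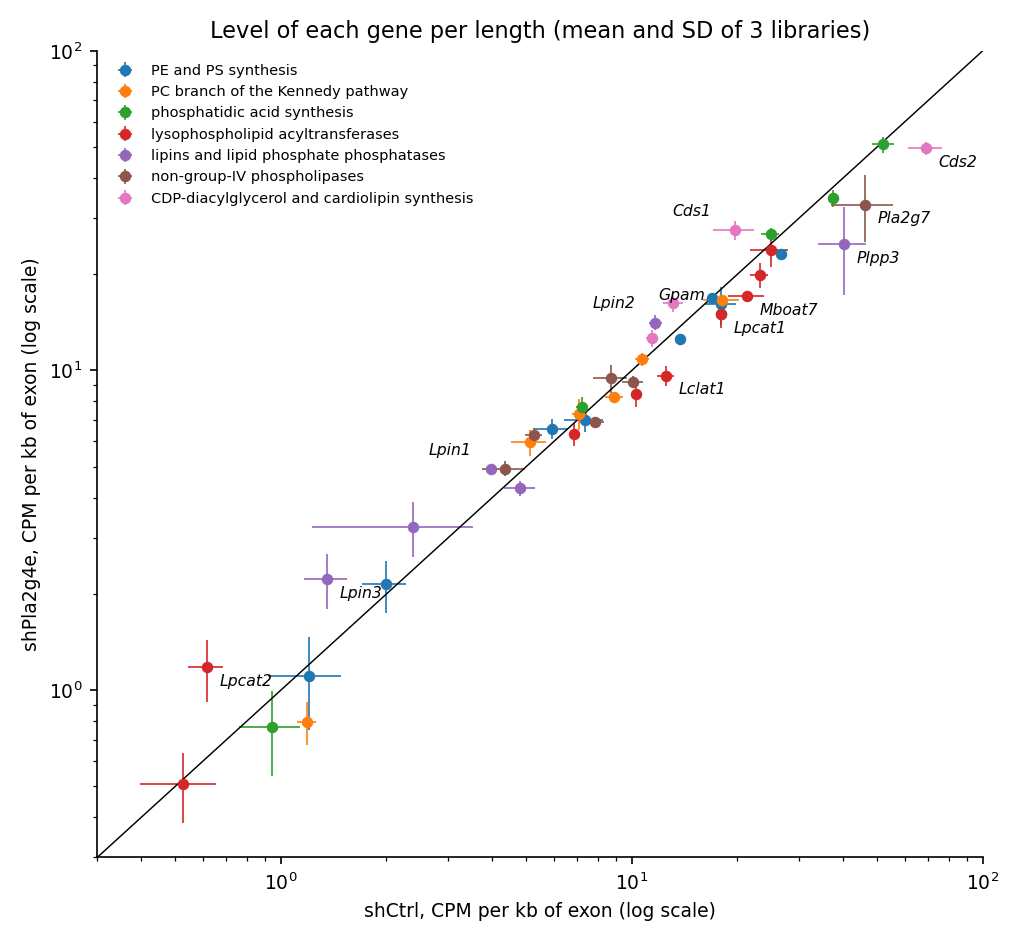
Level of each of the 45 genes per length, CPM per kb of exon in shCtrl (horizontal axis) against sh*Pla2g4e* cultures (vertical axis), both on a log scale, as mean and SD of 3 libraries, with colours for the 7 roles and the line of equal levels. The genes follow the line over about the whole range, with *Cds2*, *Plpp3* and *Pla2g7* below it and *Cds1*, *Lpin3* and *Lpcat2* above it.

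Matches to the sh2 seed were spread over the genes. The letters GTGGCCA were searched on the transcript strand of annotated 3′ UTRs, which 15705 genes tested have, and 14.6% of these hold them in at least 1 transcript. Of the 45 genes, 9 held 1 match each, *Agpat2*, *Agpat5*, *Cds2*, *Etnk1*, *Lclat1*, *Lpgat1*, *Lpin1*, *Pcyt1b* and *Ptdss2*. Of these 9, 7 were lower and the median log2 fold change was −0.14. Without a match, 20 of 36 were lower and the median was −0.04. Over all genes tested, 1551 of 2289 with a match were lower, with a median of −0.14, and the median of those without was 0.02, so that the values of the 9 genes were near the background. Of the genes called lower, *Cds2* and *Lclat1* held a match and *Plpp3* did not, while *Cds1* held none. *Lpin1*, higher in all sh*Pla2g4e* libraries, held one 61 bases into its 3′ UTR. Over all genes, 44.2% of those called lower and 7.72% of those called higher held the letters. A match is a description of the letters only, and its part in the level of any of these genes was not tested.

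**Figure D5:**
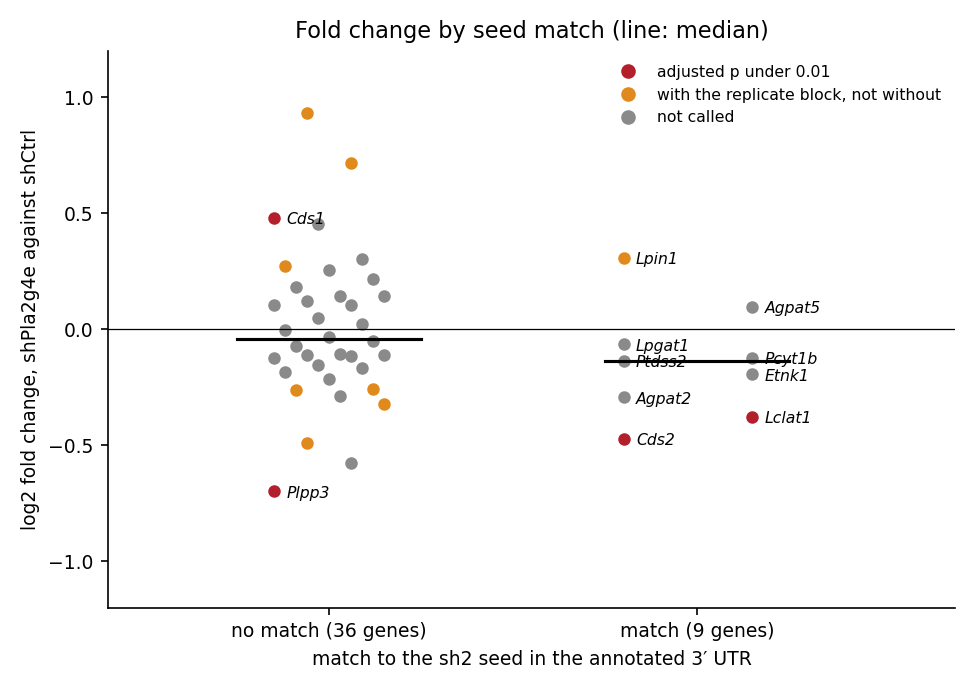
Log2 fold change (vertical axis) of the 36 genes without and the 9 genes with a match to the sh2 seed in an annotated 3′ UTR, each point a gene, lines for the medians, and colours as for the calls. *Cds2* and *Lclat1* are the lowest of the genes with a match and *Lpin1* the highest.

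Other genes of the same pathways were read from a list by function. Of 63 such genes tested, 5 were called lower (7.94%, beside 4.0% of all genes) and 4 higher (6.35%, beside 2.48%). With the block 11 were lower (17.5%, beside 9.02%) and 5 higher (7.94%, beside 6.5%). At an average log2 CPM of at least 3, 5 of 50 were lower and 4 higher, and 11 and 5 with the block, beside 7.66%, 3.43%, 16.8% and 9.42% of all genes at that level. Their median log2 fold change was −0.02. *Prelid1*, which carries phosphatidic acid into mitochondria for cardiolipin, fell from 81.3 ± 3.49 to 49.2 ± 2.44 CPM (SD, n = 3, log2 fold change −0.72, adjusted p = 2.55e-05), although 50% of its exon bases overlap *Rab24* on the other strand. *Cdipt*, the phosphatidylinositol synthase that uses the product of *Cds1* and *Cds2*, fell from 116.6 ± 7.83 to 86.8 ± 3.35 CPM (−0.43, adjusted p = 0.00219). *Far2*, which makes the fatty alcohols of ether lipids, fell from 37.5 ± 2.97 to 23.1 ± 3.67 CPM (−0.70, adjusted p = 0.000890), with 12.6% of its exon bases under an antisense gene. Each of the 3 had its groups apart, which their choice by smallest p in these same libraries makes likely.

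Higher were *Dgkk*, a diacylglycerol kinase that makes phosphatidic acid, from 20.7 ± 4.77 to 36.0 ± 5.62 CPM (SD, n = 3, log2 fold change 0.80, adjusted p = 0.00168), and *Tmem86a*, a lysoplasmalogenase, from 14.0 ± 2.14 to 22.6 ± 1.17 CPM (0.69, adjusted p = 0.00175). *Pnpla3*, a lipase of lipid droplets, rose from 9.80 ± 2.11 to 16.0 ± 0.501 CPM (0.70, adjusted p = 0.00548). The groups were apart for all 3, again after a choice by smallest p. Without shCtrl replicate 2, edgeR called 2 genes of the list lower and none higher, beside 3.21% of all genes called, and 17 of 63 had an unadjusted p under 0.05 (27%, beside 20.7% of all genes).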

How the data were processed

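The authors aligned the reads with STAR 2.7.0d and counted those on exons with featureCounts 1.6.0, and they deposited raw read counts per gene, 1 file per library. The methods name mm10 and GENCODE M18, whereas the file headers show GENCODE vM28 and the labels GRCm39. Gene positions are therefore those of GRCm39, and sequences those of GENCODE vM21 on GRCm38. The kit keeps the strand, but the counting command sets no strand and no multimapping option, so that reads of antisense pairs cannot be told apart. Genes that reached 6 reads in 1 library or more were scaled by TMM and tested with edgeR 4.0.16 (glmQLFit, glmQLFTest, R 4.3.3) with Benjamini-Hochberg adjustment over all of them. SEs come from the F statistic. Limma 3.58.1 after voom, the test of the paper, DESeq2 1.42.0, other scalings and filters, a robust fit, a block for the replicate number, an adjusted p of 0.05 and the omission of each library in turn were alternatives. The fits were tested on simulated data for the same comparison (21876 genes), where edgeR called 50 of 50 genes raised 2-fold, 49 of 50 lowered to 0.5-fold, 45 of 50 raised 1.5-fold and 37 of 50 lowered to 0.667-fold. The changed genes were drawn from those with many reads, and the counts had a smooth dispersion trend and no replicate effect. These shares therefore do not give the power in the real data, least of all for scarce genes. Across 10908 genes whose mean log2 CPM reached 3, same-numbered libraries of the groups deviated together (r = 0.392, 0.189 and 0.461, against −0.393 to 0.108 for unlike numbers), so the numbers in the labels were taken as pairs. The mean chi-square per gene was 5.65 to 14.0 within groups, so that no library was a repeat. The genes and lists were chosen with earlier results of these data known. Called genes are given library by library, and the most abundant gene of each role and the 3 other pathway genes of smallest p in each direction are named. Of 72 other pathway genes listed, 70 matched a gene.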

Additional observations from a re-analysis of the deposited data

How the results depend on the processing

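Leaving out a library in turn gave 695 to 1613 called genes over all, 0 to 3 of the 45 lower and 0 to 1 higher, a median log2 fold change of −0.081 to −0.005 over the 45, and 2 to 6 lower and 0 to 3 higher among the other pathway genes. With the replicate block 3395 genes were called in place of 1419, 7 and 5 of the 45, and 11 other pathway genes lower. No filter gave 2349 in all, and 5 lower and 3 higher of the 45. A threshold of 0.05 gave 2813 in all, 6 lower and 5 higher of the 45, and 8 other pathway genes lower. Upper-quartile scaling and at least 10 reads in every library each left 1 of the 45 lower and 3 other pathway genes lower. Library size alone left 1 lower and 3 higher of the 45 and 3 other pathway genes lower, with a median of 0.007, and filterByExpr left 3 other pathway genes lower. The cause of these shifts was not tested. *Agpat1* changed sign with upper-quartile scaling (0.002), library size alone (0.043), and on omitting shCtrl replicate 1 (0.024) or sh*Pla2g4e* replicate 3 (0.001). *Lpgat1* did so with library size alone (0.012) and on omitting shCtrl replicate 1 (0.001) or sh*Pla2g4e* replicate 3 (0.026), and ranged from −0.164 to 0.026 over the omissions. Of the 29 genes that were neither called in either fit nor the most abundant of their role, 7 changed sign in some alternative and none was called in any. *Plpp3* was called in 4 of the 10 alternatives that keep all libraries and *Lclat1* in 7 of them, and their adjusted p ranged over all 16 alternatives from 6.79e-13 to 0.169 and from 0.000116 to 0.0595. The block changed no call of the 45 genes or of the other pathway genes named beyond those given with it. The SE of the log2 fold change was 0.074 in *Etnk1* and 0.317 in *Agpat2*, the gene with the fewest reads in a library (19), and depth and the spread between libraries were not separated in it.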
